A study of Mus musculus with 22 samples.

Results

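The 10 genes described here code for the glucose transporter GLUT1 and for 9 enzymes of glycolysis and lactate formation: Slc2a1, Hk2, Gpi1, Pfkl, Aldoa, Tpi1, Gapdh, Eno1, Pkm and Ldha. They were chosen by name, as the parent genes whose Ensembl identifiers carry these symbols in GENCODE M21 (GRCm38), and their pseudogenes were left out. They are 10 of the 55487 gene rows in each of the 2 deposited tables, and all 10 passed the filter on low values in both. GENCODE M21 gives the symbol Aldoa to 2 records; the one used spans chr7:126795234-126800751, and the other never exceeded 36 reads in a library.

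RNA was sequenced from mouse embryonic stem cells lacking Dux (Dux-/-) and kept in 2iLIF medium, a serum-free culture with kinase inhibitors and the cytokine LIF. Every group, the control included, carried an mCherry-tagged construct and, after 24 hours of recovery from plating, received doxycycline at 0.25 ug/mL for 12 hours, so the control shares the Dux deletion, the recovery and the drug. FL is mCherry-FL Dux and mCherry is the red fluorescent tag alone; the other groups, named as in the labels, are C3+14, C1C3a, C1C3b, C1C3c, C1+14, C12345delt14, deltC12345+14 and deltC12345delt14, each joined to mCherry. The labels do not spell out C1 to C5, 14, or the letters a, b and c. DUX is a double-homeobox protein that activates the gene programme of the 2-cell embryo. Each group had 2 replicates, and the labels do not say whether these came from separate cultures, so the p-values below measure the spread between these libraries, which may be technical. The labels do not say how many clones each line represents. A further group, C3delt14, was not analysed here.

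Glycolysis turns glucose into pyruvate in the cytosol. GLUT1 lets glucose enter the cell, and hexokinase 2 traps it as glucose 6-phosphate; the remaining enzymes rearrange and split the sugar, oxidise the products and recover ATP, and lactate dehydrogenase A then reduces pyruvate to lactate. Pluripotent stem cells use this route heavily, and several of its genes are textbook targets of the hypoxia-inducible factor HIF1 and of MYC.

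Values are normalised reads: the reads of a gene divided by 1 size factor per library. The authors scaled the tables separately, so groups were compared only inside a table. One table, called the chimera table here, holds mCherry, C1+14, FL, C3+14 and the 3 C1C3 constructs; the other, the deletion table, holds the same FL libraries with C12345delt14, deltC12345+14 and deltC12345delt14. Library totals were between 21059953 and 40448890 reads. A fold change is a difference on the log2(value + 1) scale with its standard error (SE), and a gene is said to have risen or fallen only where limma's moderated test gave a Benjamini-Hochberg adjusted p under 0.05 over all 21584 genes tested in the chimera table or 19833 in the deletion table. All comparisons with mCherry share the same 2 mCherry libraries, and those with FL the same 2 FL libraries.

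The size factors bear on every direction given below. The normalised values of an FL library sum to 47395388 in replicate 1 and 37367384 in replicate 2, against 20588192 and 20544841 in mCherry, so a fixed share of all reads appears as a higher normalised value in FL. For that reason many directions are also given with every library scaled to its own total, or after quantile normalisation, which gives all libraries the same distribution of values. Between FL and mCherry the median log2 fold change over all genes tested was 0.09 on the deposited scale, -0.52 with library totals and -0.27 after quantile normalisation. Of all genes tested, 33.2% were higher and 27.4% lower in FL than in mCherry on the deposited scale, against 15.2% and 52.8% with library totals and 24.8% and 35.5% after quantile normalisation.

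The cells' labelled identity was checked first. Pou5f1, the core pluripotency factor OCT4, stood at 12414 and 12697 normalised reads in mCherry and at 19308 and 20815 in FL. That is a rise of 0.68 on the deposited scale, but -0.36 with library totals, not past the test, and a fall of -0.43 after quantile normalisation. The 8 fibroblast genes listed as a sign of feeder cells summed to between 39.2 and 204.3 normalised reads per chimera-table library, with Dcn, Lum and Postn at 0 in both mCherry libraries. The 8 genes listed for the 2-cell state summed to 1373363 and 742280 in FL, 764598 and 836772 in C3+14, 371665 and 541951 in C1C3a, 19273 and 13806 in C1C3b, 909.8 and 831.8 in C1C3c, and at most 13.2 in C1+14 or mCherry. Of 10 embryonic stem cell genes, 2 rose and 7 fell in FL against mCherry, 1 and 6 in C3+14, 2 and 6 in C1C3a, 0 and 7 in C1C3b and C1C3c each, and 0 and 3 in C1+14. In FL, 0 rose and 8 fell with library totals, and 0 and 10 after quantile normalisation. Of 6 primitive endoderm genes, 5 rose in C1C3b with a median of 2.86, 4 rose in C1C3a and in C3+14, 3 in C1C3c, 2 in C1+14 and 1 in FL, and 1 fell in C3+14 and in FL. The C1C3b count was 5 under both other scalings; in FL, 0 rose and 1 fell with library totals and 1 and 4 after quantile normalisation. Of 7 tested fibroblast genes, 5 rose and 1 fell in C1C3b (median 3.87) and in C3+14 (2.74), 3 and 1 in C1C3c, 2 and 1 in C1+14, 2 and 0 in C1C3a, and 1 and 0 in FL. Under each of the other scalings 5 again rose in C1C3b but 2 in C3+14. Of 7 trophectoderm genes, 1 rose and 3 fell in FL, 3 and 2 in C3+14, and 2 and 3 in C1C3b. Beside these counts, 34.7% of all genes tested were higher and 26.0% lower in C1C3b, 37.3% and 25.7% in C3+14, and 16.9% and 14.5% in C1+14. The endoderm genes summed to 68.6 and 78.9 in mCherry, 92.8 and 121.4 in FL, 628.3 and 600.9 in C3+14, and 647.5 and 363.8 in C1C3a. The 7 trophectoderm genes summed to 2101.5 and 2206.3 in mCherry and to between 604.5 and 1114.2 in the other chimera-table libraries. The part of these cell states in the results below was not tested. In bulk RNA, fewer cells of a type and less RNA per cell cannot be told apart.

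Hk2, hexokinase 2, stood apart from the other members. The gene lies on the minus strand at chr6:82725025-82774454, and no 50-base stretch of its transcripts occurs in another annotated gene. An antisense transcript, Gm17034, overlaps it, and whether reads were counted by strand is not given in the sources used here. Hk2 read 7732 and 7968 in the 2 mCherry libraries, 8858 and 10771 in C1+14, and 8665 and 8395 in C1C3c. It read 2359 and 4018 in FL, 3277 and 2765 in C3+14, 2920 and 2863 in C1C3a, and 2370 and 3110 in C1C3b. The 8 libraries of those 4 constructs all lay below the 6 libraries of the other 3 groups.

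Against mCherry, Hk2 fell in FL (log2 fold change -1.35 ± 0.20, SE, adjusted p = 8.11e-05), C3+14 (-1.38 ± 0.20, 6.23e-05), C1C3a (-1.44 ± 0.20, 4.3e-05) and C1C3b (-1.53 ± 0.20, 3.04e-05), each with 2 libraries against 2 in limma with Benjamini-Hochberg adjustment. These correspond to ratios between 0.346 and 0.392. The fall kept its sign and its call under both other scalings, at -2.37, -2.16, -2.34 and -1.62 with library totals and at -1.80, -1.79, -1.88 and -1.68 after quantile normalisation. In C1C3c and C1+14 the fold changes were 0.12 ± 0.20 and 0.32 ± 0.20, with adjusted p of 0.677 and 0.274 in limma; C1+14 passed the test after quantile normalisation, at 0.65.

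The chimeras were also compared directly with C1+14. Hk2 was lower in C1C3a (log2 fold change -1.76 ± 0.20, limma adjusted p = 9.3e-06) and in C1C3b (-1.85 ± 0.20, 1.54e-05), and both calls held with library totals, at -2.88 and -2.15, and after quantile normalisation, at -2.53 and -2.33. C1C3c differed from C1+14 by -0.20 ± 0.20 (adjusted p = 0.595), and C3+14 from FL by -0.03 ± 0.20 (0.916). With an SE of 0.20 and 2 libraries a side, those last values do not show that the constructs act alike.

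In the deletion table, which holds the same FL libraries, Hk2 was again low in FL. It read 2901 and 5025 in FL, 8655 and 11895 in C12345delt14, 16861 and 12799 in deltC12345+14, and 15706 and 21145 in deltC12345delt14. FL held the 2 lowest libraries. Hk2 rose against FL in deltC12345+14 (1.94 ± 0.30, limma adjusted p = 0.00141) and deltC12345delt14 (2.25 ± 0.30, 0.000715), and these calls held with library totals, at 3.14 and 3.41, and after quantile normalisation, at 2.75 and 3.04. C12345delt14 differed by 1.41 ± 0.30 without passing the test (adjusted p = 0.0635), and passed it at 1.92 with library totals and at 1.54 after quantile normalisation.

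A ratio inside a library is free of size factors. Hk2 was therefore set against the mean log2 level of 8 enzymes, the members other than Hk2 and Slc2a1. The difference was -1.10 ± 0.01 (SD, n = 2) in mCherry, -1.13 ± 0.03 in C1+14 and -1.06 ± 0.04 in C1C3c, and -3.50 ± 0.52 in FL, -3.30 ± 0.09 in C3+14, -3.38 ± 0.11 in C1C3a and -2.83 ± 0.24 in C1C3b. It was -2.23 ± 0.55 in C12345delt14, -1.05 ± 0.08 in deltC12345+14 and -1.003 ± 0.085 in deltC12345delt14. In the chimera table the 6 libraries of mCherry, C1+14 and C1C3c all lay above the other 8. An exact permutation test of 2 libraries against 2 cannot give a p below 0.333, so no test is attached to these ratios. They show unequal change between Hk2 and the 8 enzymes and not which of them moved.

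**Figure D1:**
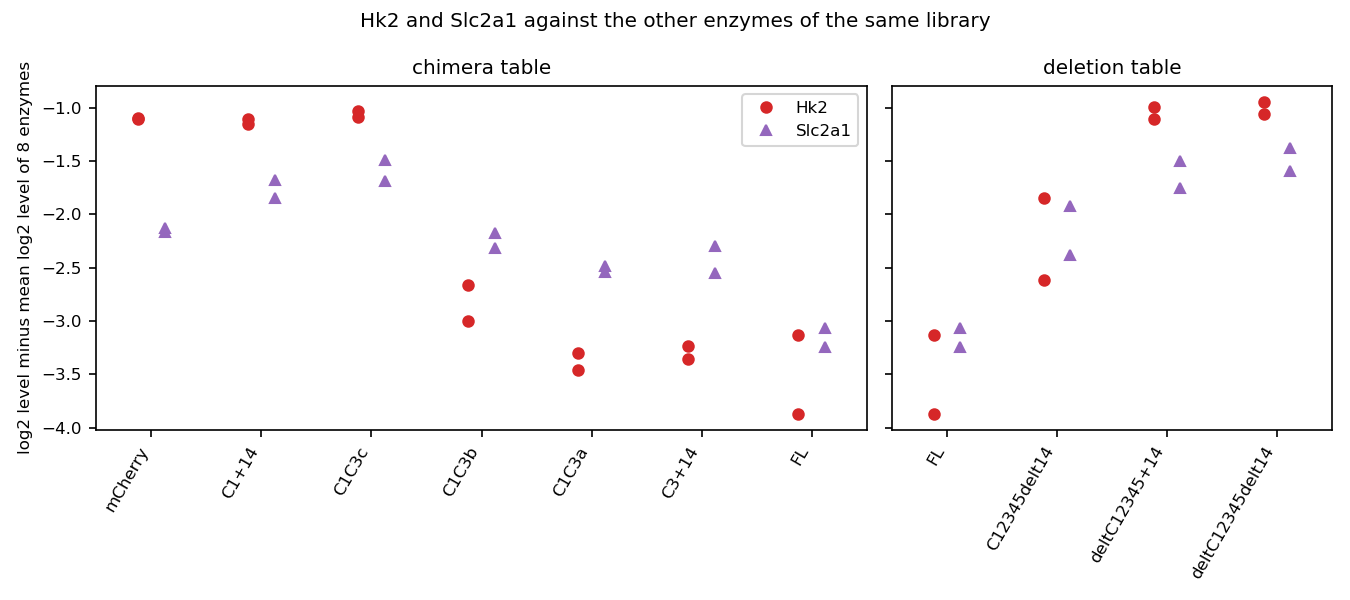
Hk2 (circles) and Slc2a1 (triangles) against 8 other glycolysis enzymes in each library. The vertical axis is the log2 level of the gene minus the mean log2 level of the 8 enzymes in the same library; constructs are on the horizontal axis, with the chimera table on the left and the deletion table on the right, and each point is 1 library. Hk2 sits near -1.10 in mCherry, C1+14 and C1C3c and between -3.87 and -2.66 in C1C3b, C1C3a, C3+14 and FL.

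Slc2a1, the gene for GLUT1, sits upstream of Hk2 in the pathway and at chr4:119108711-119137983 on the plus strand. It read 3812 and 3792 in mCherry, 3633 and 4193 in FL, 3788 and 4369 in C1C3b, 5156 and 5404 in C1C3a, and 6281 and 4833 in C3+14. It read 5496 and 6340 in C1C3c and 5474 and 7264 in C1+14. These last 2 groups had the highest means, but C3+14 overlapped both. FL and C1C3b overlapped mCherry, and the other 4 groups lay above it.

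Slc2a1 rose against mCherry in C1+14 (0.73 ± 0.16, limma adjusted p = 0.00372) and C1C3c (0.63 ± 0.16, 0.00528), and both calls held with library totals (0.95 and 0.82) and after quantile normalisation (1.03 and 0.94). It also passed the test in C3+14 (0.54 ± 0.16, 0.00925) and C1C3a (0.47 ± 0.16, 0.0183), but these 2 stood at -0.25 and -0.44 with library totals and at 0.13 and 0.0024 after quantile normalisation, not past the test under either. FL differed by 0.04 ± 0.16 (adjusted p = 0.855), which became a fall of -0.99 with library totals. Left-out libraries ended some calls: without C1C3c replicate 2 its value was 0.53 (adjusted p = 0.0544), without C3+14 replicate 1 its value was 0.35 (0.126), and the C1C3a call was lost whichever of its 4 libraries was left out, at 0.44 to 0.51.

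In the deletion table Slc2a1 read 4469 and 5244 in FL, 10189 and 11251 in C12345delt14, 12814 and 7574 in deltC12345+14, and 10017 and 16958 in deltC12345delt14. Both FL libraries lay below the other 6. It rose against FL in deltC12345+14 (1.02 ± 0.30, limma adjusted p = 0.0221) and in deltC12345delt14 (1.43 ± 0.30, 0.00534), and held under both other scalings. C12345delt14 differed by 1.15 ± 0.30 (adjusted p = 0.0858) and passed the test with library totals, at 1.66, but not after quantile normalisation, at 1.30 (adjusted p = 0.0588). The deltC12345+14 call was lost without its replicate 1 (0.65, adjusted p = 0.121), without FL replicate 1 (0.91, 0.127) or without FL replicate 2 (1.14, 0.0621).

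The 8 enzymes after hexokinase all rose in FL, C3+14 and C1C3a on the deposited scale, and of these rises those of Tpi1 in FL and C3+14 alone stayed past the test under both other scalings. Against mCherry, 8 of the 10 members rose and 1 fell in FL, beside 33.2% and 27.4% of all genes; 9 rose and 1 fell in C3+14, beside 37.3% and 25.7%; and 9 rose and 1 fell in C1C3a, beside 35.3% and 27.5%. The members' median log2 fold changes were 0.96, 0.75 and 0.87, beside 0.09, 0.23 and 0.12 over all genes tested. With library totals 1 rose and 2 fell in FL, 1 and 2 in C3+14 (beside 21.8% and 45.3% of all genes), and 0 and 3 in C1C3a (19.2% and 50.2%). After quantile normalisation 2 rose and 3 fell in FL (24.8% and 35.5%), 1 and 4 in C3+14 (26.7% and 36.4%), and 1 and 5 in C1C3a (5394 and 8284 of the 21584 genes tested). The 10 members took 1.23% ± 0.14 (SD, n = 2) of all reads in FL, 1.24% ± 0.07 in C3+14, 1.25% ± 0.07 in C1C3a and 1.25% ± 0.04 in mCherry, and 1.33% ± 0.04, 1.39% ± 0.02 and 1.68% ± 0.17 in C1C3b, C1C3c and C1+14.

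**Figure D2:**
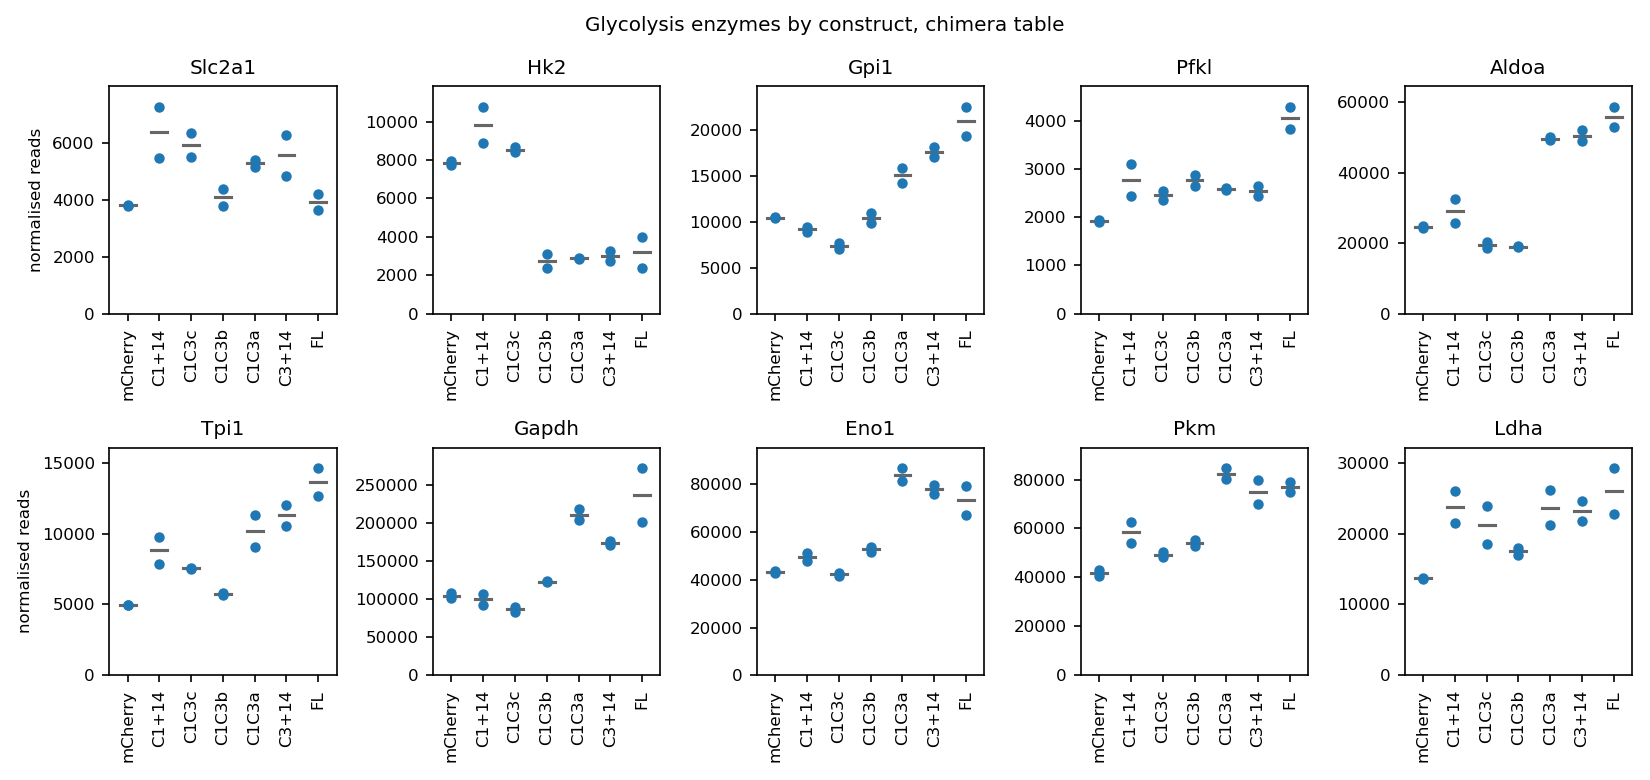
Normalised reads of the 10 genes in the 14 libraries of the chimera table, 1 panel a gene. Points are libraries, short bars are the means of 2, and every vertical axis starts at 0. Hk2 is low in C1C3b, C1C3a, C3+14 and FL, whereas Aldoa, Gapdh, Gpi1, Eno1 and Pkm are highest in C1C3a, C3+14 or FL on this scale, a difference that shrinks or reverses with library totals or after quantile normalisation.

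Tpi1, triose phosphate isomerase, which interconverts the products of the split sugar, kept its direction under every scaling in FL and C3+14. The gene spans chr6:124810586-124814296 on the minus strand. It read 4968 and 4971 in mCherry, 12677 and 14610 in FL, 12023 and 10523 in C3+14, 9046 and 11297 in C1C3a, 5809 and 5664 in C1C3b, 7560 and 7510 in C1C3c, and 7856 and 9769 in C1+14. Both mCherry libraries lay below the other 12. Tpi1 rose in FL (1.45 ± 0.14, limma adjusted p = 1.02e-06) and C3+14 (1.18 ± 0.14, 6.59e-06), and these calls held with library totals, at 0.42 and 0.39, and after quantile normalisation, at 0.73 and 0.71. In C1C3a it rose by 1.02 ± 0.14 (2.3e-05), which with library totals was 0.11 and no longer past the test. In C1C3c (0.60 ± 0.14, 0.00294) and C1+14 (0.82 ± 0.14, 0.000702) the rise was larger with library totals, at 0.79 and 1.03.

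Gapdh oxidises glyceraldehyde 3-phosphate and is often used as a reference gene. It lies at chr6:125161715-125166467 on the minus strand. Gapdh read 101379 and 107756 in mCherry, 271553 and 201194 in FL, 176433 and 170410 in C3+14, 203564 and 217568 in C1C3a, and 123438 and 122409 in C1C3b. C1C3c (89989 and 83098) and C1+14 (92375 and 106995) held the 3 lowest libraries. Gapdh rose in FL (1.16 ± 0.15, limma adjusted p = 1.57e-05), C3+14 (0.73 ± 0.15, 0.000701) and C1C3a (1.01 ± 0.15, 4.94e-05) on the deposited scale, stood at 0.13, -0.06 and 0.09 with library totals, and fell by -0.77, -0.81 and -0.61 after quantile normalisation. Set against Pkm in the same library, which needs no scaling, Gapdh gave 3.08 ± 0.77 (SD, n = 2) reads per Pkm read in FL, 2.50 ± 0.011 in mCherry, 2.32 ± 0.16 in C3+14, 2.55 ± 0.023 in C1C3a and 1.71 ± 0.00197 in C1+14.

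Aldoa, aldolase A, splits fructose 1,6-bisphosphate. It read 24370 and 24849 in mCherry, 52838 and 58683 in FL, 51986 and 49031 in C3+14, 50144 and 49138 in C1C3a, 25581 and 32661 in C1+14, 20276 and 18538 in C1C3c, and 18785 and 19065 in C1C3b. The 6 libraries of FL, C3+14 and C1C3a lay above the other 8. The rises of 1.18 ± 0.12, 1.04 ± 0.12 and 1.01 ± 0.12 (limma adjusted p = 2.79e-06, 8.25e-06 and 1.02e-05) came to 0.15, 0.25 and 0.10 with library totals and turned to -0.10, -0.26 and -0.40 after quantile normalisation. In C1C3b Aldoa fell by -0.38 ± 0.12 (adjusted p = 0.0163), and this kept its call under both scalings, at -0.47 and -0.69, though leaving out any 1 of the 4 libraries ended it, at -0.39 to -0.36. The fall in C1C3c (-0.34 ± 0.12, 0.0354) was lost with library totals (-0.15), after quantile normalisation (-0.17), and without C1C3c replicate 2 (-0.28), mCherry replicate 1 (-0.36) or mCherry replicate 2 (-0.33).

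Eno1 and Pkm code for enolase 1 and pyruvate kinase, the enzymes of the last steps before pyruvate. Eno1 (chr4:150236721-150248879) read 42995 and 43839 in mCherry, 67237 and 79537 in FL, 79924 and 76128 in C3+14, and 81394 and 86811 in C1C3a. Pkm (chr9:59656368-59679375) read 40709 and 42992 in mCherry, 74917 and 79168 in FL, 79733 and 69964 in C3+14, and 80204 and 84655 in C1C3a. The remaining constructs lay between 41639 and 53824 for Eno1 and between 48160 and 62695 for Pkm, below the 6 libraries of FL, C3+14 and C1C3a. The rises of Eno1, 0.75 ± 0.11, 0.85 ± 0.11 and 0.95 ± 0.11, were -0.28, 0.06 and 0.04 with library totals and -0.51, -0.54 and -0.43 after quantile normalisation. Those of Pkm, 0.88 ± 0.12, 0.84 ± 0.12 and 0.98 ± 0.12, were -0.15, 0.05 and 0.06 and then -0.40, -0.52 and -0.40; the 6 adjusted p on the deposited scale lay between 8.03e-06 and 7.09e-05 in limma. Pkm also rose in C1+14 (0.48 ± 0.12, 0.00758), by 0.70 with library totals and 1.39 after quantile normalisation; without mCherry replicate 1 the value was 0.44 (adjusted p = 0.0731).

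Ldha, lactate dehydrogenase A, was lowest in mCherry, whose libraries both lay below the other 12. It spans chr7:46841475-46855627 on the plus strand. It read 13785 and 13618 in mCherry, 22846 and 29251 in FL, 24679 and 21776 in C3+14, 21227 and 26121 in C1C3a, 16998 and 18032 in C1C3b, 18554 and 23907 in C1C3c, and 21478 and 26079 in C1+14. Ldha rose in C1+14 (0.79 ± 0.16, limma adjusted p = 0.00268) and C1C3c (0.62 ± 0.16, 0.00696), with library totals by 1.01 and 0.81 and after quantile normalisation by 1.06 and 0.97; without C1C3c replicate 2 the latter was 0.44 (0.0889). Its rises in FL (0.92 ± 0.16, 0.000271), C3+14 (0.76 ± 0.16, 0.0011) and C1C3a (0.78 ± 0.16, 0.000892) turned to -0.12, -0.03 and -0.14 with library totals and to -0.24, -0.23 and -0.32 after quantile normalisation.

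Gpi1 and Pfkl act early, on the hexose phosphates. Gpi1, glucose 6-phosphate isomerase (chr7:34201330-34230336), read 10365 and 10569 in mCherry, 22526 and 19315 in FL, 18093 and 17052 in C3+14, 14261 and 15865 in C1C3a, and 7678 and 7013 in C1C3c, the lowest group. It fell in C1C3c (-0.51 ± 0.11, limma adjusted p = 0.00235), at -0.32 with library totals and -0.33 after quantile normalisation, both past the test. Its rises in FL (0.99 ± 0.11, 5.73e-06), C3+14 (0.75 ± 0.11, 6.84e-05) and C1C3a (0.52 ± 0.11, 0.00117) were -0.04, -0.04 and -0.39 with library totals and 0.03, 0.02 and -0.31 after quantile normalisation. Pfkl, liver-type phosphofructokinase (chr10:77986947-78010083), read 1902 and 1940 in mCherry and 4292 and 3832 in FL, with the other 10 libraries between 2367 and 3094. Pfkl rose in FL (1.08 ± 0.13, 7.83e-06), at 0.73 after quantile normalisation and at 0.04, not past the test, with library totals. Between FL and C3+14, Pfkl differed most of the 10 members on the deposited scale: C3+14 was lower by -0.68 ± 0.13 (adjusted p = 0.000924), and by -0.43 with library totals and -0.55 after quantile normalisation, all past the test. FL and C3+14 also differ in the kind of library described below, and its part in their comparison was not tested.

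Of the remaining members in those comparisons, C3+14 had more Slc2a1 than FL (0.50 ± 0.16, limma adjusted p = 0.0224) and less Gapdh (-0.43 ± 0.15, 0.0309), so 1 member rose and 2 fell beside 22.9% and 17.9% of all genes. The Slc2a1 call was lost without C3+14 replicate 1 (0.31) or FL replicate 1 (0.39), and the Gapdh call with library totals (-0.19), after quantile normalisation (-0.03) and without C3+14 replicate 1 (-0.46), C3+14 replicate 2 (-0.41) or FL replicate 1 (-0.21). In C1C3b against mCherry 3 members rose and 2 fell, beside 34.7% and 26.0% of all genes: Pfkl (0.53 ± 0.13, 0.0027), Pkm (0.37 ± 0.12, 0.0148), Eno1 (0.28 ± 0.11, 0.0435), Aldoa and Hk2. With library totals and after quantile normalisation the Pfkl rise held, at 0.43 and 0.56, and those of Pkm (0.27 and 0.26) and Eno1 (0.19 and 0.11) did not. The Eno1 call was lost whichever library was left out, at 0.25 to 0.31, and the Pkm call without C1C3b replicate 2 (0.33) or mCherry replicate 1 (0.33). In C1C3c 4 rose and 2 fell, beside 23.8% and 20.8%, and in C1+14 5 rose and 0 fell, beside 16.9% and 14.5%. With library totals 1 rose and 2 fell in C1C3b (beside 31.6% and 29.7% of all genes), 5 and 1 in C1C3c (28.0% and 17.4%) and 6 and 0 in C1+14 (21.5% and 10.2%), and in C3+14 against FL 1 and 1 (27.2% and 10.6%). The 5 in C1+14 were Tpi1, Ldha, Slc2a1, Pfkl (0.51 ± 0.13, 0.00758) and Pkm, and the Pfkl call was lost without C1+14 replicate 2 (0.34) or mCherry replicate 1 (0.50). The Pfkl rises in C3+14 (0.40 ± 0.13, 0.0129), C1C3a (0.43 ± 0.13, 0.00905) and C1C3c (0.35 ± 0.13, 0.0344) were each lost without 1 library or more: C3+14 replicate 1 (0.34), mCherry replicate 1 (0.39) or mCherry replicate 2 (0.42) for the first, mCherry replicate 1 (0.42) for the second, and any of the 4, at 0.30 to 0.41, for the third; with library totals the first 2 turned to -0.38 and -0.48.

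**Figure D3:**
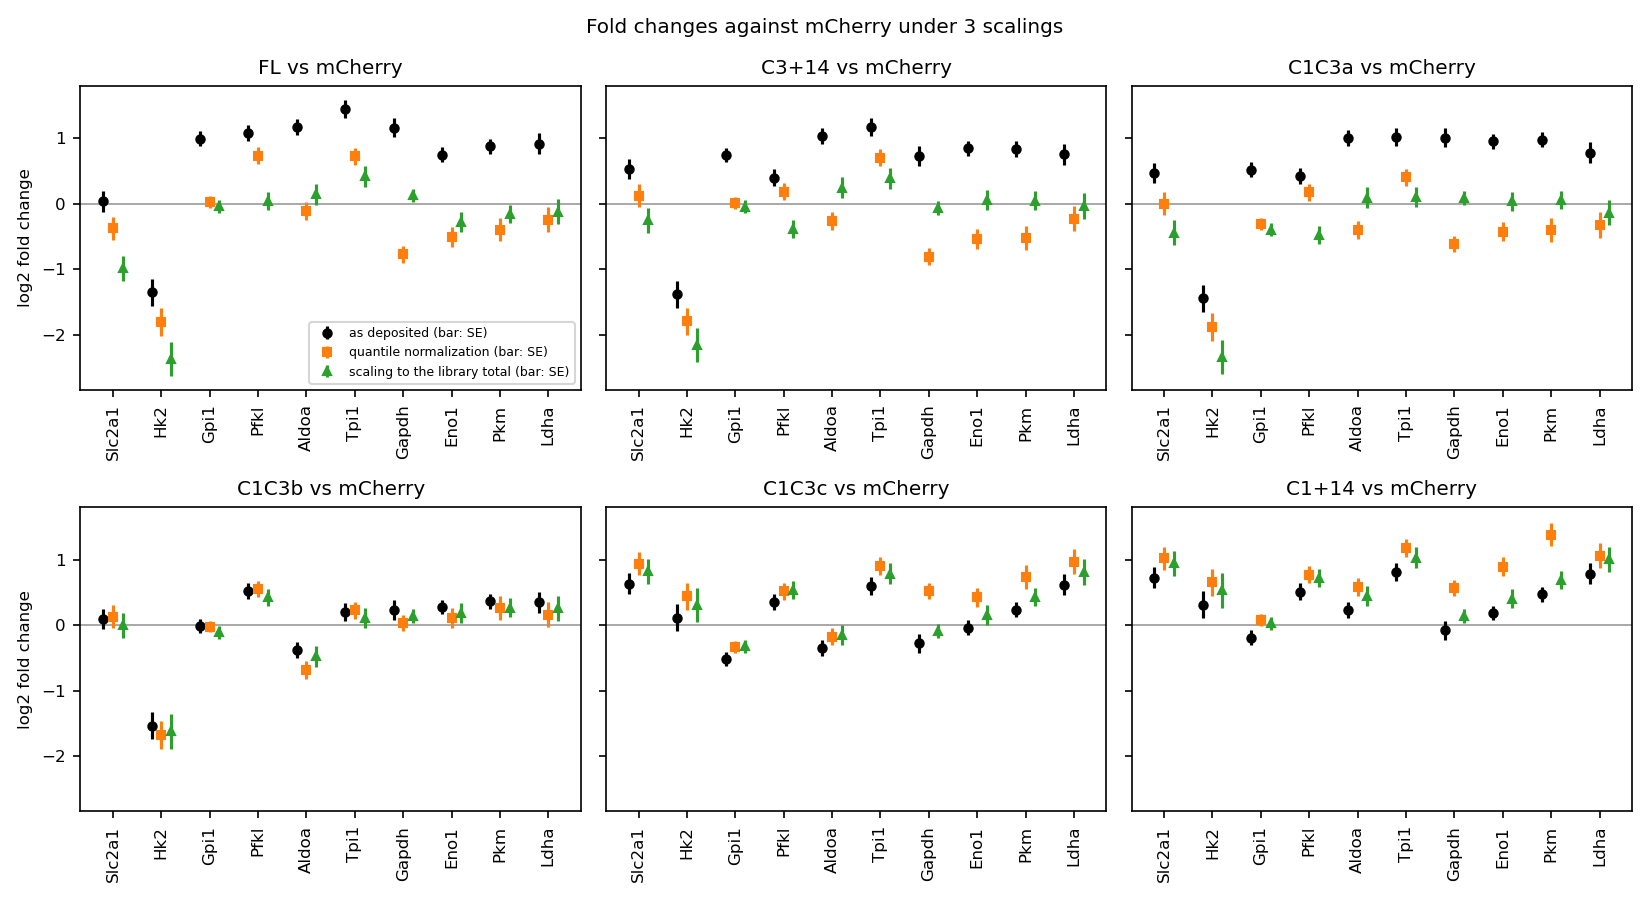
Log2 fold changes of the 10 genes against mCherry, 1 panel a construct, under 3 scalings: as deposited (black circles), after quantile normalisation (orange squares) and with library totals (green triangles); bars are SE. In FL, C3+14 and C1C3a Hk2 is the one gene below 0 under all 3, and Tpi1 the one gene above 0 under all 3 in each of these constructs, whereas Gapdh and Eno1 in FL change sign.

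Within the chimera table the 3 C1C3 constructs were then set against C1+14. In C1C3a 5 members rose and 1 fell, beside 32.5% and 24.8% of all genes: Gapdh (1.08 ± 0.15), Aldoa (0.78 ± 0.12), Eno1 (0.76 ± 0.11), Gpi1 (0.71 ± 0.11) and Pkm (0.50 ± 0.12), with limma adjusted p between 3.41e-05 and 0.00238, and Hk2 as above. The 5 rises reversed with library totals, to -0.05, -0.36, -0.37, -0.42 and -0.63, and after quantile normalisation, to -1.18, -0.98, -1.32, -0.39 and -1.78. In C1C3b 0 rose and 5 fell, beside 26.4% and 18.6%: Hk2, Slc2a1 (-0.63 ± 0.16, 0.00545), Tpi1 (-0.61 ± 0.14, 0.00268), Aldoa (-0.61 ± 0.12, 0.00134) and Ldha (-0.43 ± 0.16, 0.0419). These 5 falls kept their sign and call under both scalings, with Tpi1 at -0.92 and -0.95 and Aldoa at -0.93 and -1.27. The Slc2a1 call was lost without C1C3b replicate 1 (-0.53) or C1+14 replicate 2 (-0.43), and the Ldha call without C1C3b replicate 1 (-0.39), C1C3b replicate 2 (-0.48) or C1+14 replicate 2 (-0.29). In C1C3c 0 rose and 1 fell, beside 8.57% and 5.77%: Aldoa (-0.58 ± 0.12, 0.00853; -0.60 with library totals and -0.76 after quantile normalisation), a call lost without C1C3c replicate 2 (-0.51) or C1+14 replicate 2 (-0.40). With library totals 0 members rose and 8 fell in C1C3a (beside 13.2% and 55.2% of all genes), 0 and 6 in C1C3b (19.7% and 29.8%) and 0 and 2 in C1C3c (8.32% and 8.66%).

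In the deletion table Gapdh and Aldoa were the enzymes after hexokinase that passed the test on the deposited scale, and both fell there. Gapdh read 333987 and 251664 in FL, 257589 and 190209 in C12345delt14, 144352 and 98235 in deltC12345+14, and 105183 and 179158 in deltC12345delt14. In deltC12345+14 2 members rose and 2 fell, beside 24.1% and 29.2% of all genes, and in deltC12345delt14 2 rose and 1 fell, beside 24.6% and 29.1%. Gapdh fell in both (-1.28 ± 0.33, limma adjusted p = 0.0124, and -1.08 ± 0.33, 0.0246), stood at -0.07 and 0.09 with library totals, and rose by 1.31 and 1.39 after quantile normalisation. Aldoa fell in deltC12345+14 (-0.74 ± 0.25, 0.0388), was 0.48 with library totals and rose by 0.85 after quantile normalisation. Leaving out deltC12345+14 replicate 2 ended the Gapdh (-1.01) and Aldoa (-0.51) calls there, as did leaving out FL replicate 1 (-1.08 and -0.83), and FL replicate 2 that of Aldoa (-0.65). The Gapdh call in deltC12345delt14 was lost without its replicate 1 (-0.69), FL replicate 1 (-0.87) or FL replicate 2 (-1.28). Replicate 2 of deltC12345+14 and replicate 1 of deltC12345delt14 are libraries with few reads in gene copies, as described below. The part of that difference in these falls was not tested.

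No other member passed the test against FL on the deposited scale. Ldha read 28099 and 36589 in FL, 48767 and 42249 in C12345delt14, 42822 and 26435 in deltC12345+14, and 30985 and 47270 in deltC12345delt14. Tpi1 read 15591 and 18274 in FL, 25702 and 22349 in C12345delt14, 20783 and 11627 in deltC12345+14, and 15272 and 25348 in deltC12345delt14. In both genes the 2 replicates of each of the last 2 constructs lay further apart than those of FL. C12345delt14 had 0 members past the limma test against FL, beside 0.363% of all genes higher and 0.645% lower; 2 members had an unadjusted p under 0.05, edgeR called 0 and DESeq2 2. Between deltC12345+14 and deltC12345delt14 limma, edgeR and DESeq2 each called 0 of the 10, beside 0.0% of all genes in limma, and 1 member had an unadjusted p under 0.05. Each of these 2 groups holds 1 library with many and 1 with few reads in gene copies, as described below. That difference is part of the spread the test uses, so the 0 does not show that the constructs act alike. With library totals 4 members rose and 0 fell against FL in C12345delt14, 8 and 0 in deltC12345+14 and 9 and 0 in deltC12345delt14, beside 8.13%, 58.7% and 56.7% of all genes higher and 3.18%, 10.2% and 10.7% lower. The 10 members took 1.74% ± 0.37 (SD, n = 2) and 1.98% ± 0.47 of all reads there, against 1.23% ± 0.14 in FL and 1.70% ± 0.06 in C12345delt14.

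Reads that fall in copies of these genes bear on the parents' counts. Many glycolysis genes have processed pseudogenes, intronless copies made from their mRNA and inserted elsewhere in the genome. A copy was counted where at least 10% of a pseudogene's 21-base stretches, or at least 50% of those of another gene, occur in the parent's transcripts. By that rule Gapdh had 246 copies, Ldha 22, Eno1 10, Aldoa 7, Pkm 7, Tpi1 2, Gpi1 1, and Slc2a1, Hk2 and Pfkl 0. The share of a gene's 50-base stretches that also occur in another annotated gene was 26.0% for Eno1, 25.8% for Pkm, 25.1% for Gapdh, 15.8% for Gpi1, 9.26% for Ldha, 6.43% for Aldoa, 4.18% for Tpi1, 1.54% for Slc2a1, 0.0298% for Pfkl and 0% for Hk2. How reads that match several genes were treated is not given in the sources used here.

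The 60 bases of Gapdh below come from 1 exon at chr6:125162930-125162989 (minus strand, GRCm38). Of the 60-base windows searched along the coding sequence, this one was held exactly by the most copies. It therefore shows the copies where they are most alike and is not a typical stretch. Among the 241 copies searched, 51 hold exactly this run, Gm12033 and Gm13394 among them, whereas Gm5559 (chr5:95861714-95862715) differs from it at 1 base, the capital.
Gapdh: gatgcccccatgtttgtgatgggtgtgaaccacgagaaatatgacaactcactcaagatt
Gm5559: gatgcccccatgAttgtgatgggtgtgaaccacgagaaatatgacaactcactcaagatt
The annotated copies Gm12033, Gm13394 and Gm5559 took 54470, 51504 and 51598 reads in FL replicate 1, and 15190, 15057 and 15153 in mCherry replicate 1. Each held over 3 times as many reads in the FL library.

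The libraries fell into 2 kinds by these copy reads. In 6 libraries, both of mCherry, both of C3+14, deltC12345+14 replicate 2 and deltC12345delt14 replicate 1, the copies of the 7 genes took 3999 to 5569 RPM (reads scaled to a common library total), and in the other 14 they took 18671 to 28577. Gapdh made most of the difference. Its copies took 0.496 to 0.732 reads per Gapdh read in the 6 libraries and 3.44 to 3.70 in the 14. For Eno1, whose copies include the retrogene Eno1b, the ranges were 0.712 to 0.762 and 0.748 to 0.780, and for Pkm 0.0275 to 0.0375 and 0.0402 to 0.0461. Since mCherry is of the first kind, every comparison with mCherry other than that of C3+14 sets libraries of different kinds against each other, and kind and construct cannot be told apart there. The same holds for C3+14 against FL, since both C3+14 libraries are of the first kind and both FL libraries of the second.

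**Figure D4:**
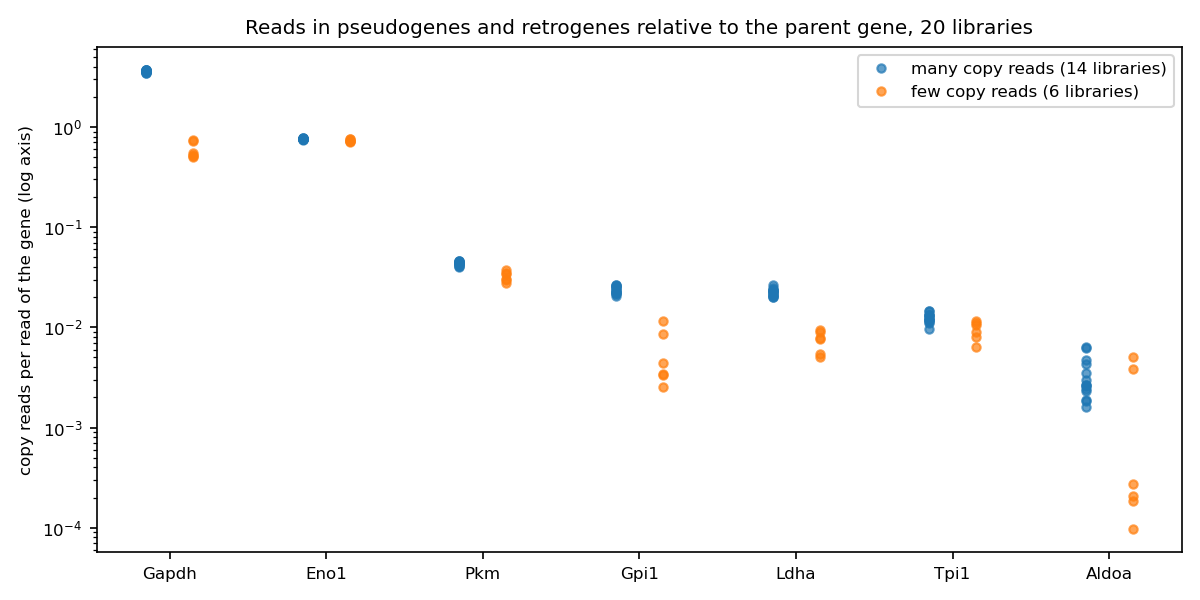
Reads in annotated copies per read of the parent gene, on a log axis, for 7 genes in 20 libraries. Each point is 1 library, blue for the 14 libraries with many copy reads and orange for the 6 with few. The 2 kinds stand apart for Gapdh, at 3.44 to 3.70 and 0.496 to 0.732, and nearly coincide for Eno1.

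Copy reads added to the parent moved Gapdh. Summed with its copies, Gapdh rose by 2.77 in FL and 2.61 in C1C3a against mCherry, where the parent alone gave 1.16 and 1.01. In C3+14, of the same kind as mCherry, the sum gave 0.75 and the parent alone 0.73. The sum fell by -2.02 in C3+14 against FL, which differ in kind, where the parent alone gave -0.43. Against FL, the sum gave -1.98 in deltC12345+14 and -1.81 in deltC12345delt14 and no longer passed the test (limma adjusted p = 0.0632 and 0.0832).

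The 2 kinds occur side by side in deltC12345+14 and deltC12345delt14, which allows a look inside 1 construct. In deltC12345+14 all 10 members were higher in the library with many copy reads, by 0.23 to 0.84 on the log2 scale with a median of 0.47, beside a median of 0.00 over all genes tested. In deltC12345delt14 all 10 were again higher in the library with many copy reads, by 0.41 to 0.77 with a median of 0.51, beside 0.02 over all genes. Tpi1 differed by 0.84 and 0.73, Slc2a1 by 0.76 and 0.76, Ldha by 0.70 and 0.61, Gapdh by 0.56 and 0.77, and Hk2 by 0.40 and 0.43. These are 1 library against 1 and carry no test. Hk2, which has 0 copies by this rule, differed with the kind as well. In C1+14 against mCherry, which also differ in kind, the fold changes of Tpi1, Slc2a1 and Ldha were 0.82, 0.73 and 0.79, and those of Gapdh and Gpi1 were -0.07 and -0.19. The part of library kind in those values was not tested. For Hk2, C3+14, which is of the same kind as mCherry, gave -1.38, and C1C3a against C1+14, both with many copy reads, gave -1.76.

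**Figure D5:**
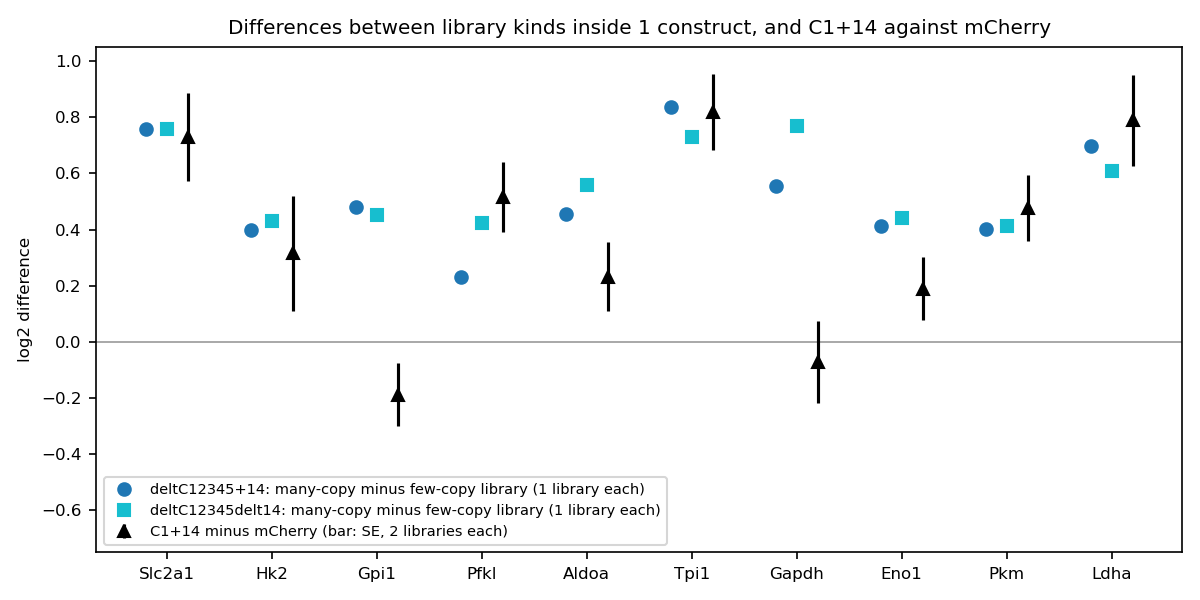
Log2 differences of the 10 genes between the library with many and the library with few copy reads of deltC12345+14 (circles) and deltC12345delt14 (squares), 1 library each, and between C1+14 and mCherry (triangles, bar SE, 2 libraries each). All 20 within-construct differences lie between 0.23 and 0.84, and the triangles of Slc2a1, Tpi1 and Ldha lie beside them, while those of Gapdh and Gpi1 lie below 0 on the deposited scale (above 0 with library totals and after quantile normalisation).

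Levels were also divided by the length of all annotated exons of a gene, every isoform included, which can exceed that of the transcript expressed. Reads in copies, 0.496 and 0.521 per Gapdh read and 0.716 and 0.719 per Eno1 read in mCherry, were not included. The order of genes is therefore approximate. Gapdh led in mCherry with 25301 ± 1091 normalised reads per kilobase, and Aldoa (8454 ± 116, SD, n = 2), Pkm (8368 ± 323) and Eno1 (8072 ± 111) followed. Aldoa and Pkm, and Pkm and Eno1, did not differ beyond their spread. Ldha stood at 4139, Tpi1 at 1805, Gpi1 at 1622, Hk2 at 1315 and Slc2a1 at 1084. Pfkl was lowest at 288, beneath the transporter and hexokinase.

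The promoters were read because 8 of these genes rose together on the deposited scale in FL while Hk2 fell. RefSeq (GRCm38.p6) records 16 promoters for the 10 members; the 250 bases before each start were searched on both strands for the 5-letter core of the hypoxia response element, ACGTG or GCGTG, for the E-box CACGTG bound by MYC, which contains ACGTG, and for the DUX consensus site, with 2 bases left free. The hypoxia core was present in 12 of the 16 records and 8 of the 10 genes, beside 38.6% of 32817 promoters. Some records of Aldoa and of Eno1 overlap and share the same core. A gene was counted where any of its records matched, so the share per promoter is not a like measure for the gene count. The E-box was present in 1 record, of Ldha, beside 6.02%, and the DUX site in 0, beside 0.177%. That Ldha record (chr7:46845554-46845803) is not the one printed below, and its start was not found in a GENCODE transcript of Ldha. Below are Hk2 (chr6:82774455-82774704, minus strand), which fell, Ldha (chr7:46846832-46847081, plus strand), and Tpi1 (chr6:124814159-124814408, minus strand), which kept its rise in FL and C3+14 under every scaling; capitals mark the core on either strand, and Tpi1 has none.
Hk2: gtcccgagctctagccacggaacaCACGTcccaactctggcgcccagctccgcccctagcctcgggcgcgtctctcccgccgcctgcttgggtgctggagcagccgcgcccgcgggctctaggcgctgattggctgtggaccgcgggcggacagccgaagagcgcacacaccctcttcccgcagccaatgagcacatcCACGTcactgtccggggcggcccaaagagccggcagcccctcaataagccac
Ldha: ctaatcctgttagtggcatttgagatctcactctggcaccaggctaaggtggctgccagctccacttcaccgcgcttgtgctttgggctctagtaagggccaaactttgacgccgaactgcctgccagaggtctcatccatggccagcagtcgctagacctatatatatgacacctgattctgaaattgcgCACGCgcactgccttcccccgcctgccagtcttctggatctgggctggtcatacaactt
Tpi1: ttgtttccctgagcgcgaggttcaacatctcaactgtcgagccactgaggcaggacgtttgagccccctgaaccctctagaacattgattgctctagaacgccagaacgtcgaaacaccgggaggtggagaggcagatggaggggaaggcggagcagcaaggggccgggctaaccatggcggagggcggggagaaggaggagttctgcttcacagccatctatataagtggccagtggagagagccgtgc
A match describes letters and is not a binding site.

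The rest of the pathway was described from lists of known genes. Among 18 tested genes of a list of 23 further glycolytic isoenzymes and steps, 5 rose and 4 fell in FL against mCherry, 5 and 3 in C3+14, 3 and 4 in C1C3a, 4 and 5 in C1C3b, 3 and 2 in C1C3c, and 4 and 1 in C1+14. With library totals 1 rose and 9 fell in FL, and after quantile normalisation 2 and 5. Over all genes tested the shares higher and lower than mCherry on the deposited scale were 33.2% and 27.4% in FL, 35.3% and 27.5% in C1C3a, 37.3% and 25.7% in C3+14, 23.8% and 20.8% in C1C3c, 34.7% and 26.0% in C1C3b, and 16.9% and 14.5% in C1+14. In FL they were 15.2% and 52.8% with library totals and 24.8% and 35.5% after quantile normalisation, and the counts of the lists that follow stand beside the same shares. Pgk1, phosphoglycerate kinase, read 9794 and 9317 in mCherry and 22909 and 27549 in FL. It rose in all 6 constructs, by 0.71 to 1.78, with 1.39 in FL and 0.72 in C1+14. In FL it was no longer past the test with library totals, at 0.36. Aldoc, the brain aldolase isoform, read 48.2 and 50.6 in mCherry and 690 and 864 in FL, and rose in all 6 by 2.94 to 5.03; these calls held under both other scalings, the lowest value being 2.51 in FL with library totals. Slc2a3, the glucose transporter GLUT3, fell in the same 4 constructs as Hk2: it read 18219 and 18669 in mCherry and 13122 and 11411 in FL, and its fold changes were -0.59 in FL, -1.21 in C3+14, -1.63 in C1C3a and -1.24 in C1C3b, and lower still, with every call kept, under both other scalings. In C1C3c and C1+14 Slc2a3 stood at -0.20 and -0.01. Hk1, the constitutive hexokinase, passed the test on the deposited scale in C1C3b, at -0.80. In FL it stood at 0.06 on that scale, with 1553 and 2530 against 1863 and 1953 in mCherry.

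Regulators of the pathway divided by gene. Of 14 tested, 4 rose and 8 fell in FL, 4 and 6 in C3+14, 3 and 6 in C1C3a, 3 and 4 in C1C3b, 4 and 4 in C1C3c, and 4 and 3 in C1+14; with library totals 0 rose and 11 fell in FL, and after quantile normalisation 3 and 9. Over all genes 33.2% were higher and 27.4% lower in FL on the deposited scale. Pfkfb2 and Pfkfb3 make fructose 2,6-bisphosphate, the activator of phosphofructokinase. Pfkfb3 fell in FL, C3+14 and C1C3a by -1.30, -1.25 and -1.31 and Pfkfb2 by -2.72, -2.05 and -2.11, and all 6 held under both other scalings. Tigar, which degrades the same activator, fell in all 6 constructs, by -1.79 in FL to -0.76 in C1C3a, under every scaling. Mycn, a MYC family factor, fell in all 6, by -3.90 in FL to -1.55 in C1+14, and Myc in 5, by -4.46 in FL, with C3+14 at -1.28 and not past the test on the deposited scale; Myc held 16 and 4 reads in the FL libraries. On the deposited scale Hif1a, the oxygen-regulated HIF subunit, passed the test in C1C3a alone, at -0.40, with the other 5 between -0.34 and -0.28. Its values under the other scalings are not given here. With library totals 1 of the 14 regulators rose and 10 fell in C3+14, beside 21.8% and 45.3% of all genes. In C1C3a 0 rose and 11 fell, beside 19.2% and 50.2%.

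Hypoxia targets, which HIF1 is known to induce, divided by gene. Of 15 tested, 6 rose and 4 fell in FL, 7 and 4 in C3+14, C1C3a and C1C3b each, 8 and 3 in C1C3c, and 10 and 1 in C1+14. With library totals 2 rose and 7 fell in FL, and after quantile normalisation 6 and 4. The shares of all genes higher and lower were 33.2% and 27.4% in FL and 16.9% and 14.5% in C1+14 on the deposited scale. Bnip3, a mitophagy receptor, read 151 and 107 in mCherry and 1196 and 2522 in FL, and rose in all 6 by 3.76 to 5.17 and under every scaling. Pdk1, which inhibits pyruvate dehydrogenase, rose in C1C3c (1.29) and C1+14 (1.82) under every scaling, and Vegfa, the vascular growth factor, fell in C3+14, C1C3a, C1C3b and C1C3c by -1.65, -2.05, -3.41 and -1.89. By kind of library, 14 of the 16 listed were higher in the many-copy library of deltC12345+14 and 16 of 16 in that of deltC12345delt14, where 47.1% and 53.6% of all genes tested were higher. Of the 10 embryonic stem cell genes, 9 and 5 were higher in those libraries. Bnip3 was higher by 1.15 and 0.60. The part of library kind in the comparisons with mCherry was not tested.

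The neighbouring routes were counted in the same way. Among 17 genes of lactate and pyruvate handling 6 rose and 3 fell in FL and 6 and 2 in C1+14; with library totals 1 rose and 11 fell in FL, and after quantile normalisation 5 and 6. Slc16a3, the lactate exporter MCT4, read 211 and 196 in mCherry and 2575 and 3449 in C1+14, and rose in all 6 constructs, by 2.27 to 3.87, under every scaling. Slc16a1, the lactate transporter MCT1, rose in C1C3b (1.15) under every scaling and in C3+14 (0.72), where it stood at -0.06 with library totals. Bsg, its chaperone basigin, rose in FL by 1.02 on the deposited scale, stood at -0.02 with library totals and rose by 0.35 after quantile normalisation. Of 16 enzymes of the citric acid cycle 13 rose and 0 fell in FL, led by Idh3g at 1.35, against 1 and 4 in C1+14, where over all genes 33.2% and 27.4%, and 16.9% and 14.5%, were higher and lower. The FL count turned to 1 higher and 10 lower with library totals and was 6 and 2 after quantile normalisation, with a median of 0.26. On the deposited scale 0 rose and 14 fell in deltC12345+14 against FL, and 0 and 12 in deltC12345delt14, beside 29.2% and 29.1% of all genes lower. The counts of this list under the other scalings are not given here for those 2 comparisons. The median log2 fold change over all genes tested there was -0.08 and -0.11 on the deposited scale and 0.73 and 0.70 with library totals. Of 8 pentose phosphate enzymes 4 rose and 1 fell in FL, and of 5 gluconeogenic enzymes tested 3 rose and 0 fell, against 0 and 5, and 0 and 2, with library totals, and 3 and 4, and 2 and 1, after quantile normalisation.

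The genes whose profile over the 14 chimera-table libraries was most like the members' mean profile were Galk1 (Pearson r = 0.98), Por (0.94), Pafah1b3 (0.94), Lpcat4 (0.94) and Clk3 (0.94), among 10681 genes with a mean of at least 100. Galk1 is galactokinase, the first enzyme of galactose use. Among the members, Tpi1 lay closest to the mean profile of the other 9 (r = 0.95), followed by Pkm (0.90) and Aldoa (0.89); Slc2a1 had r = 0.18 and Hk2 -0.59. The libraries share size factors and replicates share constructs, so these r describe the profiles and carry no p.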

How the data were processed

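RNA-seq of 22 mouse stem cell samples in 11 groups of 2 was given, and 20 libraries in 10 groups were used. The authors deposited normalised counts, a signal per gene, in 2 tables; per the submitters' processing notes they used Trim Galore 0.5.0, FastQC, DESeq2 and mm10. Per the labels' protocols, 500 ng of total RNA entered a stranded poly(A) kit. The aligner, the counter, the annotation, the use of strand and the treatment of reads with several matches are not given in the sources used here.

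Dividing each deposited column by the value of 1 read gave whole reads for 100% of 1220714 values (tolerance 1e-06). Ensembl identifiers were matched to GENCODE M21 symbols for 55227 of 55487 rows. Genes reaching 10 normalised reads in 2 libraries or more entered the test on log2(value + 1), a scale that understates changes of low genes, with limma 3.58.1 (R 4.3.3), all groups of a table in 1 fit, and Benjamini-Hochberg adjustment over all genes. edgeR 4.0.16 and DESeq2 1.42.0 on the whole reads, other scalings, pseudocounts, filters, a replicate block and left-out libraries were alternatives; edgeR called 6419 genes higher and 6504 lower in FL than in mCherry. The scripts were tested on simulated data. Replicate numbers were not treated as pairs, since in the chimera table deviations of same-numbered libraries correlated between -0.101 and 0.050. In the deletion table they correlated between -0.574 and 0.135. The -0.574 is that of deltC12345+14 with deltC12345delt14, whose libraries with many copy reads have opposite replicate numbers. No fit had a term for the kind of library.

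The members and lists were chosen with earlier results of these data known. Named were the 10 members, 9 set genes (Slc2a3, Pgk1, Pgam1, Hk1, Pdk1, Hif1a, Myc, Slc16a1 and Bsg), and the largest rise and fall past the test in each list and comparison with mCherry, of which the text gives some; further genes were named after their values were seen. Pgam1 rose in FL by 0.56 and fell by -0.47 with library totals.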

Additional observations from a re-analysis of the deposited data

Results flagged for a closer look

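Reads in annotated Gapdh copies were left out of the 10 genes' own values, apart from an alternative that added them to Gapdh, and exceeded the level in the control libraries in 5 constructs of the chimera table. They came to 3.64 reads per Gapdh read in C1+14 and 3.61 in FL, and in C1C3a, C1C3b and C1C3c to 3.58, 3.67 and 3.61 (means of 2 libraries), against 0.496 and 0.521 in the mCherry libraries. C3+14 stood at 0.515 and 0.544. In the deletion table C12345delt14 stood at 3.54 and 3.60, while replicates differed in deltC12345+14, at 3.66 and 0.724, and in deltC12345delt14, at 0.732 and 3.44.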

How the results depend on the processing

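Of 67 member fold changes past the test, 67 kept direction and call with DESeq2 and with a pseudocount of 8, 66 with 0.1, 64 without the filter, 61 with TMM factors, 60 with edgeR, 65 with the replicate block, 65 with copies summed, 33 after quantile normalisation and 31 with library totals. After quantile normalisation 24 reversed. Against mCherry these were, in FL, Aldoa -0.10, Gapdh -0.77, Eno1 -0.51, Pkm -0.40 and Ldha -0.24; in C3+14, Aldoa -0.26, Gapdh -0.81, Eno1 -0.54, Pkm -0.52 and Ldha -0.23; in C1C3a, Gpi1 -0.31, Aldoa -0.40, Gapdh -0.61, Eno1 -0.43, Pkm -0.40 and Ldha -0.32. In C1C3a against C1+14 they were Gpi1 -0.39, Aldoa -0.98, Gapdh -1.18, Eno1 -1.32 and Pkm -1.78, and against FL Aldoa 0.85 and Gapdh 1.31 in deltC12345+14 and Gapdh 1.39 in deltC12345delt14. With library totals 20 reversed: in FL Gpi1 -0.038, Eno1 -0.28, Pkm -0.15 and Ldha -0.12; in C3+14 Slc2a1 -0.25, Gpi1 -0.041, Pfkl -0.38, Gapdh -0.057 and Ldha -0.029; in C1C3a Slc2a1 -0.44, Gpi1 -0.39, Pfkl -0.48 and Ldha -0.14; in C1C3a against C1+14 Gpi1 -0.42, Aldoa -0.36, Gapdh -0.054, Eno1 -0.37 and Pkm -0.63; in deltC12345+14 Aldoa 0.48 and in deltC12345delt14 Gapdh 0.094. The cause was not tested.

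The number of members past the test moved by over 1.5 times in these settings. After quantile normalisation the counts against mCherry were 9 in C1+14, 5 in FL and 5 in C3+14, 6 in C1C3a and 3 in C1C3b; 10, 8 and 4 in C1C3a, C1C3b and C1C3c against C1+14; and 1, 9 and 10 in C12345delt14, deltC12345+14 and deltC12345delt14 against FL. With library totals the number of members past the test was 3 in each of FL, C3+14, C1C3a and C1C3b, 2 in C1C3c against C1+14, and 4, 8 and 9 in the deletion constructs. Their directions and the shares of all genes are given in the sections above. Fitting the compared groups alone gave 8 in C1C3b against mCherry, 0 in C1C3c against C1+14, 1 in C3+14 against FL and 2 in C12345delt14 against FL. C1C3c against C1+14 gave 2 with TMM factors and with DESeq2; C12345delt14 against FL gave 1 with a pseudocount of 8, 2 with DESeq2 and 1 with many-copy libraries alone. The cause was not tested.

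With 1 library left out at a time, the count against mCherry ran from 3 to 6 in C1+14, 9 to 9 in FL and 8 to 10 in C3+14, and for C1C3a, C1C3b and C1C3c from 8 to 9, 2 to 3 and 2 to 5; 6 to 7, 3 to 5 and 0 to 1 in C1C3a, C1C3b and C1C3c against C1+14; 1 to 4 in C3+14 against FL; and 0 to 1, 1 to 4 and 2 to 3 in the deletion constructs. An arm of 1 library is assumed to vary like the other groups. With the replicate block the counts against mCherry were 9, 10, 10, 4, 6 and 5, and 3 in deltC12345+14 against FL, where Aldoa lost its call (-0.74, limma adjusted p = 0.0591). No comparison's count moved by over 1.5 times with the block. Depth was not limiting for these genes, but 2 libraries a group were few.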
